A study of Drosophila melanogaster with 6 samples.

Results

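The genes of 9 surface receptors that are candidates for sorting cells at the dorsal-ventral boundary of the optic lobe neuroepithelium were followed: the Toll-family genes Tl, 18w, Toll-6, Toll-7 and Tollo, the leucine-rich repeat genes caps and trn, and the teneurin genes Ten-a and Ten-m. They were chosen by name, as 9 of 17559 genes in the count table, and all 9 had enough reads to be among the 8707 genes tested. The libraries came from GFP-labelled neuroepithelial cells of the outer proliferation centre, the larval Drosophila melanogaster tissue that gives rise to the medulla. Cells were drawn by glass micropipette from late second-instar brains labelled female, and cells of 3 to 4 brains were pooled for each sample. The groups were 3 dorsal and 3 ventral libraries, with 21114019 to 27815885 counted reads each. The sources used here name neither the driver of the GFP nor the strain of the larvae. Nothing says whether samples came from separate days, so a p-value reflects the spread among these pools of cells only. Values of single libraries are given below in the order of replicates 1, 2 and 3 of each group.

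Tissue compartments keep straight borders when cells on each side carry different surface proteins or pull on their shared junctions with different force. Toll receptors are single-pass proteins with extracellular leucine-rich repeats. Tl is the receptor of the ligand Spätzle in embryonic axis formation and immunity, while 18w, Toll-6 and Tollo are expressed in stripes in the fly embryo and orient cell rearrangement during axis elongation. Tartan (trn) and Capricious (caps) are a closely related pair of leucine-rich repeat proteins known for cell affinity in the wing disc, and teneurins are large adhesion receptors that match synaptic partners. Ten-m is also a partner of Tartan at embryonic borders.

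The title genes separated the groups, which checks the labels: salm and salr reached 33.9 to 60.0 CPM dorsally and at most 0.417 CPM ventrally, and disco 0.623 to 3.59 CPM dorsally and 32.6 to 61.4 CPM ventrally. CPM is the read count scaled to a common library total. The 8 neuroepithelial markers (crb, sdt, baz, shg, aPKC, dome, Fas2 and hth) were all read at least 10 times in every library, with summed levels of 1059 to 1398 CPM dorsally and 956 to 1592 CPM ventrally. Markers of other cells were read too. The summed level of 5 neuroblast markers was 382 to 920 CPM dorsally and 542 to 1165 CPM ventrally, that of 7 neuron markers 741 to 976 and 789 to 1257 CPM, and that of 7 glia markers 142 to 205 and 129 to 201 CPM. No marker was called with edgeR, but 6 of the 7 neuron markers had higher values in ventral libraries, and the median log2 fold change of the 7 was -0.43. With edgeR 3 neuron markers had an unadjusted p under 0.05, as did 3.20% of all genes tested. These markers were nSyb (log2 fold change -3.62 ± 1.11), brp (-1.74 ± 0.58) and Syt1 (-1.29 ± 0.40). The groups overlapped for nSyb but not for brp and Syt1, and they did not overlap for 7.27% of all genes tested. The part of such cells in the results below was not tested. Of the markers, alrm alone was at 0 anywhere, in ventral replicate 3. Ventral replicates 1 and 2 stood apart from the rest: 27.0% and 26.3% of the 8707 genes had their lowest level there, against 10.1% to 13% in each other library. Values without them are therefore given for each receptor gene, and for the other named genes, markers aside, where leaving them out moved the value by over 1.5 times. In such bulk samples fewer cells of a type and less RNA per cell cannot be told apart.

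None of the 9 receptor genes was called between dorsal and ventral cells, and none had groups that did not overlap. At an adjusted p under 0.05 edgeR's quasi-likelihood test called 0.0919% of all genes tested (0.023% higher in dorsal and 0.0689% higher in ventral), and DESeq2 and limma-voom also called 0 of the 9, against 0.495% and 0.126% of the genes each tested. At an unadjusted p under 0.05, 2 of the 9 passed with edgeR (Toll-7 and Ten-a, both with higher values in dorsal libraries), against 3.20% of all genes in either direction and 1.24% toward dorsal. The groups did not overlap for 7.27% of all genes. Of the log2 fold changes, 6 were above 0 and 3 below, with a median of 0.14, against a median of 0.00 over all genes, of which 50.3% were above 0. Toll-7, 18w and Ten-a had the largest differences of the 9, toward dorsal, while trn, Tl, caps, Tollo and Ten-m had intervals within 2-fold and Toll-6 had few reads.

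**Figure D1:**
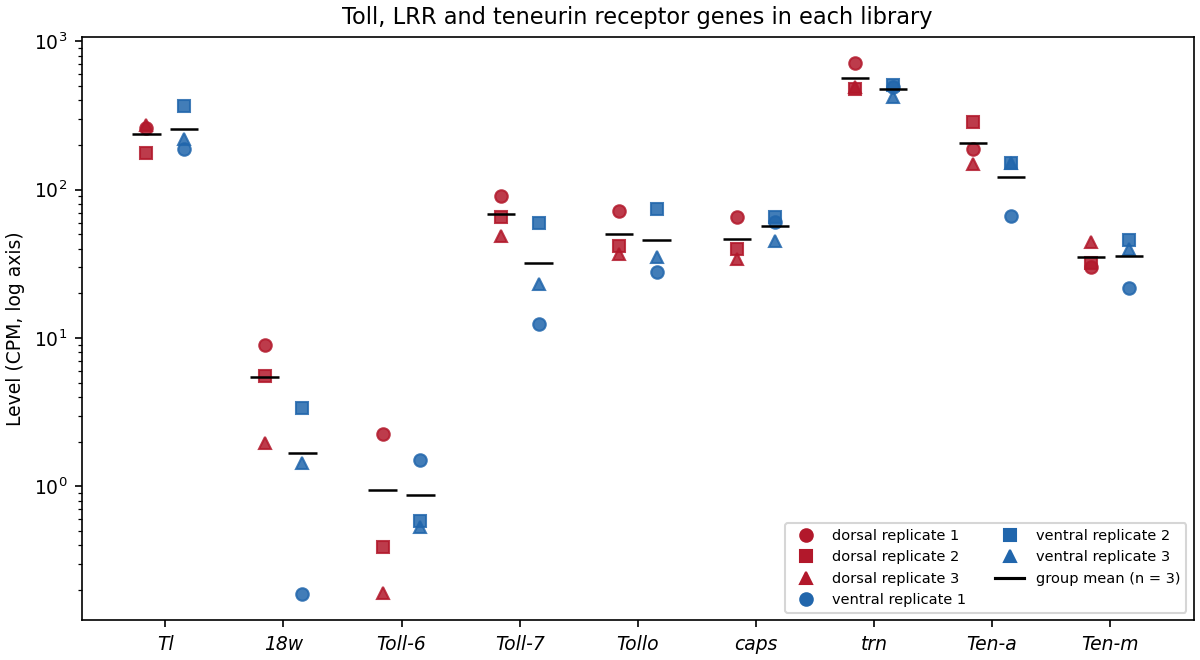
Level of each of the 9 receptor genes in each of the 6 libraries, in CPM on a log axis, with dorsal libraries in red, ventral libraries in blue and group means (n = 3) as black bars. The groups overlap for every gene, and trn is the highest gene in every library, from 421 to 710 CPM.

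All 9 genes were read, but at very different levels. Levels of different genes are compared here per kilobase of exon (RPKM, from CPM and the exon length in the annotation). In this order trn came first, with a lowest, median and highest value over the 6 libraries of 125, 147 and 211 RPKM. Tl followed with 33.9, 46.1 and 70.2 RPKM, and the ranges of these neighbours were apart from each other and from the next gene. Next came caps (7.06, 10.9 and 13.5 RPKM), Ten-a (3.90, 8.82 and 16.7), Toll-7 (1.94, 8.52 and 14.2) and Tollo (3.85, 5.44 and 10.3). These 4 genes had overlapping ranges, and Toll-7 exceeded Tollo in only 3 of 6 libraries, so their order is not fixed beyond the spread. Ten-m was lower, with 1.64, 2.73 and 3.48 RPKM, and its range was apart from that of Tollo. It exceeded 18w (0.0349, 0.492 and 1.65 RPKM) in 6 of 6 libraries although the ranges touched, and Toll-6 came last with 0.0251, 0.0737 and 0.296 RPKM. Tartan and Toll were thus the abundant receptors on both sides, and 18w and Toll-6 the scarce ones.

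Toll-7 is one of the Toll receptors that bind neurotrophin-like ligands in the fly nervous system. Its gene (FBgn0034476, BDGP6 chromosome 2R, 19826578 to 19832973, plus strand) is a single exon of 6396 bp. It measured 90.8, 65.2 and 49.0 CPM dorsally and 12.4, 59.9 and 23.3 CPM ventrally. Ventral replicate 2 lay above dorsal replicate 3, and the other 2 ventral libraries lay below all dorsal ones. The log2 fold change was 1.10 ± 0.48 (SE), with a gene-wise 95% interval of 0.02 to 2.18 (unadjusted p = 0.0461, adjusted p = 1.00, edgeR, higher in 3 dorsal libraries than in 2 of 3 ventral ones). The size of the difference moved with the ventral libraries. It was 1.93 ± 0.35 without ventral replicate 2 (adjusted p = 0.196, edgeR), 0.72 ± 0.39 without ventral replicate 1 (adjusted p = 0.894) and 1.55 ± 0.37 with both left out, where the 1 ventral library left had to be taken as varying as much as the dorsal libraries. The spread of the 3 ventral libraries (a coefficient of variation of 78.2%) was far above the 3.77% that counting alone gives, so reads were not the limit. The summed neuroblast markers were highest (1165 CPM) and the summed neuroepithelial markers lowest (956 CPM) in ventral replicate 1, where Toll-7 was lowest. Of that neuroepithelial sum hth gave 521 CPM. In this library crb, baz, shg and hth had their lowest level, sdt and aPKC their highest, and dome and Fas2 lay between. Of the neuroblast sum there, wor gave 519 CPM. The neuroblast markers dpn, wor and mira had their highest level there. In contrast, ase (444 CPM) was higher in dorsal replicate 2 (476 CPM), and insc lay between. The part of cell composition in this difference was not tested.

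The gene 18w (Toll-2) lies 278.5 kb from Toll-7 on chromosome 2R (20111511 to 20116932, plus strand), also as a single exon, of 5422 bp. It was read under its older identifier FBgn0004364. Dorsal libraries gave 230, 157 and 51 reads, or 8.96, 5.56 and 1.95 CPM. Ventral libraries gave 5, 69 and 35 reads, or 0.189, 3.39 and 1.44 CPM. Ventral replicate 2 again lay above dorsal replicate 3. The 5 reads of ventral replicate 1 have an exact 95% Poisson interval of 1.62 to 11.7 reads, which covers counting error only, and lie below every other library. The log2 fold change was 1.72 ± 0.95 (interval -0.40 to 3.83, unadjusted p = 0.101, adjusted p = 1.00, edgeR). Dropping ventral replicate 1 gave 1.19 ± 0.76, dropping ventral replicate 2 gave 2.74 ± 1.04 and dropping dorsal replicate 1 gave 1.17 ± 1.10. With both of those ventral libraries dropped it was 1.93 ± 0.98. The interval over all 6 libraries allows from 14.3-fold higher in dorsal to 1.32-fold higher in ventral cells.

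Toll-7 and 18w ranked the 6 libraries in the same order: dorsal replicates 1 and 2, ventral replicate 2, dorsal replicate 3, ventral replicate 3 and ventral replicate 1. Their log2 CPM had a Pearson r of 0.96 and a Spearman coefficient of 1.00 over 6 libraries, and r was 0.90 without ventral replicate 1 and 0.85 without the 2 libraries farthest from the median of 18w. This is a description of 6 points that share library depth and cell composition, from genes picked among 36 pairs.

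Tollo (Toll-8, FBgn0029114, chromosome 3L, 15235619 to 15242832, plus strand, a single exon of 7214 bp) did not lean to either side over all 6 libraries. It measured 72.2, 41.6 and 36.9 CPM dorsally and 27.8, 74.3 and 35.0 CPM ventrally. The highest and the lowest library were both ventral. The log2 fold change was 0.14 ± 0.38 (interval -0.71 to 0.99, adjusted p = 1.00, edgeR), so that differences of up to 1.98-fold toward dorsal and 1.64-fold toward ventral lie within the gene-wise interval. Its direction turned without dorsal replicate 1 (-0.22), ventral replicate 1 (-0.12) or ventral replicate 3 (-0.03), and with ventral replicates 1 and 2 both left out the value was 0.52. Its partner on the chromosome, Toll-6 (FBgn0036494, 15336692 to 15344315, plus strand), lies 93.9 kb away and was barely read. Its reads numbered 58, 11 and 5 dorsally and 40, 12 and 13 ventrally. The dorsal values spanned the ventral ones. Its log2 fold change of 0.10 ± 1.07 has an interval of -2.28 to 2.48 (adjusted p = 1.00, edgeR), and it was -1.59 without dorsal replicate 1 and 0.81 with ventral replicates 1 and 2 both left out. The spread of its libraries (a coefficient of variation of 121% dorsally and 62.6% ventrally) was above the 20.1% and 21.5% that counting alone gives, and no dorsal-ventral difference was detectable with this spread.

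Tl (FBgn0262473, chromosome 3R, 26799041 to 26842403, plus strand) was the most abundant Toll receptor on both sides. It measured 261, 176 and 274 CPM dorsally and 186, 365 and 218 CPM ventrally. The dorsal values lay inside the ventral range but for dorsal replicate 2, the lowest of all. The log2 fold change was -0.11 ± 0.27 (adjusted p = 1.00, edgeR), and the interval of -0.71 to 0.49 reaches 1.64-fold toward ventral and 1.40-fold toward dorsal. Dropping ventral replicate 2 gave 0.22, and dropping ventral replicates 1 and 2 gave 0.12.

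Read as a share of the 5 Toll receptors per kilobase, Tl took 65.8%, 66.6% and 80.0% of the summed RPKM dorsally and 85.6%, 77.5% and 82.6% ventrally. Toll-7 took 18.6%, 20.0% and 11.6% dorsally and 4.62%, 10.3% and 7.17% ventrally. The shares of Toll-7 did not overlap between the groups, while those of Tl did. Tollo took 7.77% to 13.1% and 9.20% to 11.4%, and 18w and Toll-6 together took the small remainder. The CPM of Toll-7 itself overlapped between the groups. As Tl made up most of each sum, the share of Toll-7 is close to its ratio to Tl, given below among the pairs. These shares were computed after the levels were seen and carry no test, and no background over all genes was computed for them.

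**Figure D2:**
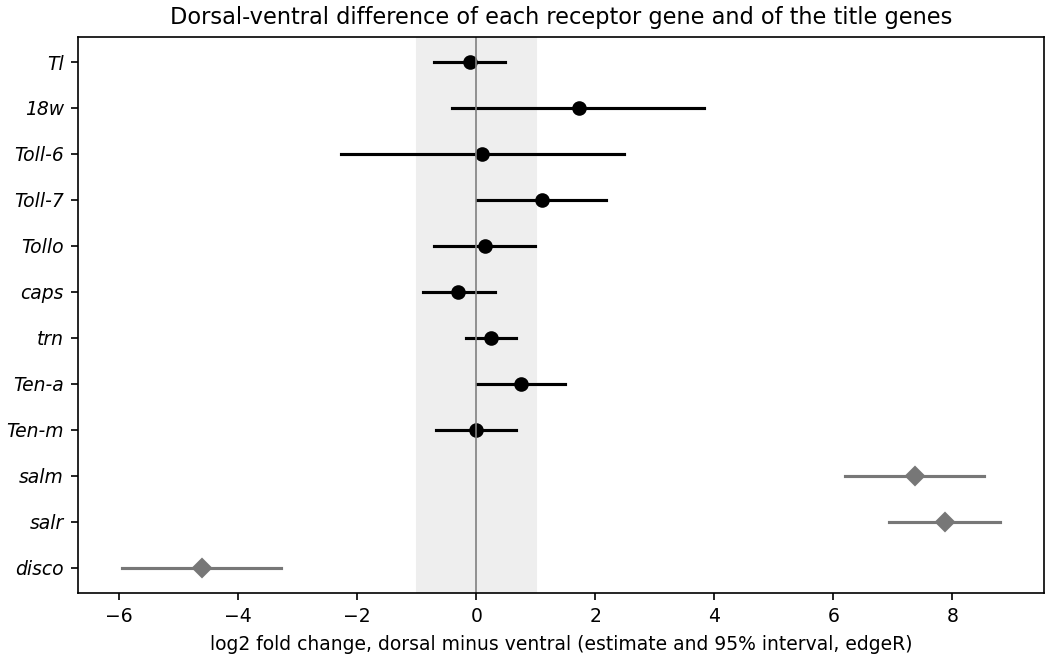
Log2 fold change (dorsal minus ventral) of the 9 receptor genes (black circles) and the title genes (grey diamonds), with gene-wise 95% intervals from edgeR, on the log2 scale. The shaded band marks less than a 2-fold difference either way, and the intervals of Tl, Tollo, caps, trn and Ten-m lie within it while those of salm, salr and disco lie far outside.

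Tartan and Capricious did not separate the groups either, and their intervals were among the narrowest of the 9. trn (FBgn0010452, chromosome 3L, 13114271 to 13118077, plus strand) measured 710, 478 and 495 CPM dorsally and 494, 508 and 421 CPM ventrally. Dorsal replicate 1 stood above the other 5 libraries, which lay close together. Its log2 fold change was 0.24 ± 0.19 (interval -0.18 to 0.66, adjusted p = 1.00, edgeR), which allows at most 1.58-fold toward dorsal and 1.13-fold toward ventral. Without dorsal replicate 1 it was 0.03, and 0.41 with ventral replicates 1 and 2 both left out. caps (FBgn0023095, chromosome 3L, 13228692 to 13279642, plus strand), 110.6 kb from trn, measured 65.2, 39.6 and 34.2 CPM dorsally and 60.1, 65.1 and 45.4 CPM ventrally. Dorsal replicate 1 was level with ventral replicate 2, and the other 2 dorsal libraries were below all ventral ones. The log2 fold change was -0.30 ± 0.27 (interval -0.90 to 0.31, adjusted p = 1.00, edgeR), and -0.63 without dorsal replicate 1. Dropping ventral replicates 1 and 2 gave 0.03.

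Of the teneurins, Ten-a had higher values in dorsal libraries and Ten-m was level. Ten-a (FBgn0267001, chromosome X, 12043698 to 12335214, plus strand) measured 187, 285 and 149 CPM dorsally and 66.6, 150.2 and 150.7 CPM ventrally. Dorsal replicate 3 lay just under ventral replicates 2 and 3, and ventral replicate 1 was lowest. The log2 fold change was 0.76 ± 0.33 (interval 0.02 to 1.49, unadjusted p = 0.0451, adjusted p = 1.00, edgeR). Dropping ventral replicate 1 gave 0.46 ± 0.26, dropping dorsal replicate 2 gave 0.46 ± 0.34 and dropping ventral replicate 2 gave 0.92 ± 0.37. With both of those ventral libraries dropped it was 0.46 ± 0.34. Ten-m (FBgn0004449, chromosome 3L, 22293044 to 22407863, minus strand) measured 29.9, 31.8 and 44.5 CPM dorsally and 21.6, 45.6 and 39.8 CPM ventrally. Its highest and lowest libraries were both ventral, and its log2 fold change was -0.01 ± 0.30 (interval -0.68 to 0.66, adjusted p = 1.00, edgeR). Dropping ventral replicates 1 and 2 gave -0.17. Exons of Ten-a share 739 bp with lncRNA:CR43960 and exons of Ten-m share 656 bp with lncRNA:CR45962 on the same strand, so some reads could have been assigned to either gene of each pair. No exon of the other 7 genes overlapped an exon of another gene in the annotation used.

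The gene-wise interval lay within 2-fold in both directions for 5 of the 9 receptor genes (Tl, Tollo, caps, trn and Ten-m), as it did for 61.8% of all genes tested. These intervals are not adjusted for the number of genes, and a p that misses the threshold does not show that dorsal and ventral cells carry the same level. For 18w, Toll-6, Toll-7 and Ten-a the interval reached beyond 2-fold. The biological coefficient of variation that edgeR estimated ran from 0.193 (trn) and 0.248 (caps) to 0.787 (18w) and 0.856 (Toll-6), against a median of 0.254 over all genes.

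Much of the variation of the receptor genes was between single libraries. In all, 5 of the 9 (18w, Toll-7, Tollo, Ten-a and Ten-m) had their lowest level in ventral replicate 1, where 27.0% of all genes had theirs. Another 5 (18w, Toll-6, Toll-7, caps and trn) were highest in dorsal replicate 1, where 15.2% of all genes were highest, and Tl, Tollo and Ten-m were highest in ventral replicate 2 (23.7% of all genes). The highest library exceeded the lowest by 1.68-fold for trn, 1.91-fold for caps, 2.07-fold for Tl and 2.12-fold for Ten-m, and by 47.3-fold for 18w. In ventral replicate 1 the summed neuroblast markers were the highest of the 6 libraries, though ase and insc were higher elsewhere. The summed neuroepithelial markers were the lowest there, though sdt and aPKC were highest. The summed neuron (789 CPM) and glia (201 CPM) markers lay within the range of the other 5. Most of those sums came from elav (274 CPM), unc-13 (366 CPM) and Eaat1 (148 CPM). Among scarcer markers nSyb (39.0 CPM, at most 6.63 elsewhere), Snap25, repo, wrapper (23.0 CPM, at most 7.68 elsewhere), Gs2 and alrm were highest there. Gat was lowest there, and Syt1, brp, Syx1A and moody lay between. The part of these cells in the receptor levels was not tested.

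**Figure D3:**
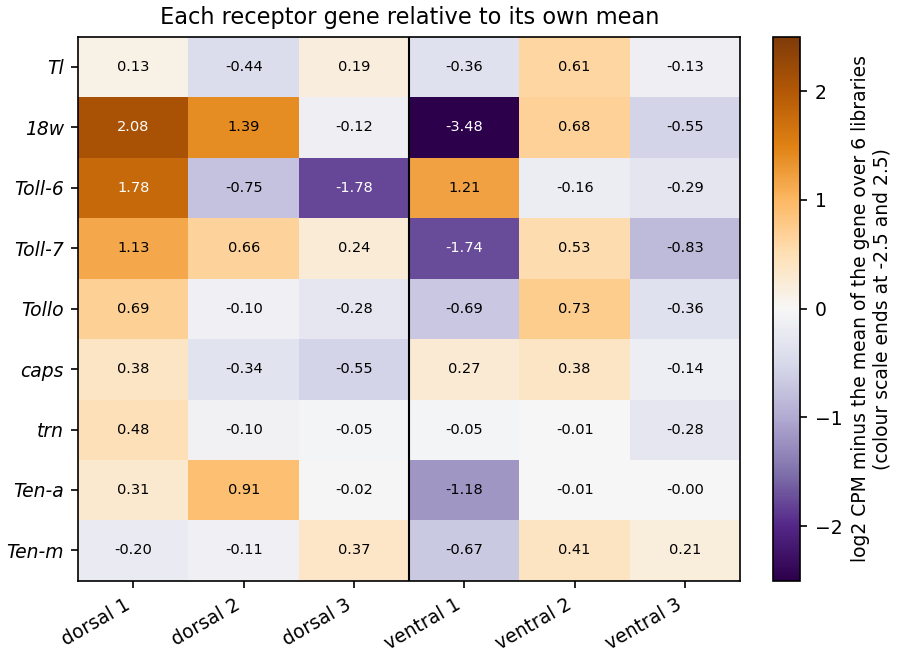
Level of each receptor gene in each library as log2 CPM minus the mean of that gene over the 6 libraries, with the colour scale from purple (below the mean) to orange (above it) ending at -2.5 and 2.5. Ventral replicate 1 holds the lowest value of 5 genes, down to -3.48 for 18w, while trn and caps stay between -0.55 and 0.48.

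Ratios of reads within a library do not depend on how libraries are scaled, and they were computed for all 36 pairs of the 9 genes. The ratios did not overlap between dorsal and ventral libraries for 6 pairs (16.7%), against 8.49% of all pairs of tested genes with reads in every library. The pairs share genes, so they are not separate observations: 5 of the 6 hold Toll-7 or 18w. Toll-7 had 1.26, 1.57 and 1.33 reads per read of Tollo dorsally and 0.446, 0.806 and 0.665 ventrally. It thus exceeded Tollo in every dorsal library and in no ventral one. Against caps, the ratio of Toll-7 was 1.39, 1.65 and 1.44 dorsally and 0.206, 0.920 and 0.513 ventrally. Tl had 2.71 to 5.58 reads per read of Toll-7 in dorsal and 6.09 to 15.1 in ventral libraries. The remaining pair without Toll-7 or 18w was that of the sister genes caps and trn. There were 0.0918, 0.0829 and 0.0691 reads of caps per read of trn dorsally and 0.122, 0.128 and 0.108 ventrally, a mean log2 difference of -0.56. These pairs were picked for their separation and carry no test, and the smallest p that an exact permutation test of 3 against 3 libraries can give, two-sided, is 0.1.

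**Figure D4:**
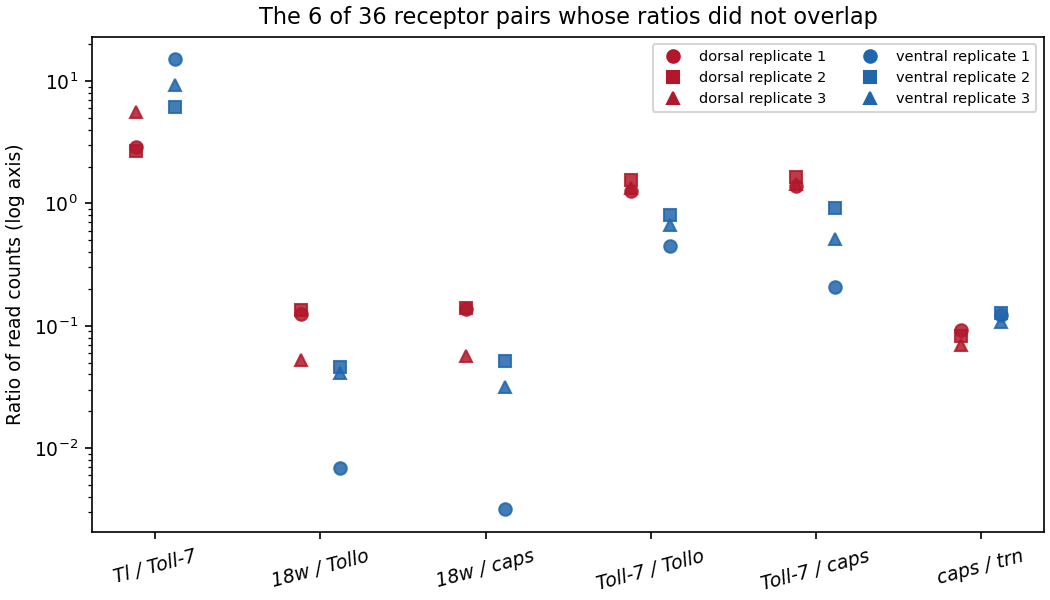
Ratio of read counts in each library, on a log axis, for the 6 of 36 pairs of receptor genes whose dorsal (red) and ventral (blue) ratios did not overlap. Toll-7 exceeds Tollo in the 3 dorsal libraries (1.26 to 1.57) and falls below it in the 3 ventral ones (0.446 to 0.806).

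Genes for the ligands of the Toll receptors were scarce in these cells. The list of 16 ligand and protease genes held 7 with enough reads to be tested, and none was called or had an unadjusted p under 0.05 with edgeR, nor was any gene of the lists described here called by DESeq2 or limma-voom. The median log2 fold change of the 7 was 0.27. The Spätzle gene spz, which encodes the ligand of Tl, had 24, 50 and 3 reads dorsally and 58, 64 and 8 reads ventrally. Of the neurotrophin-like ligands, NT1 had 0 to 4 reads in each library. A count of 0 allows 3 reads, or 0.106 to 0.147 CPM in these libraries. spz5 had 13, 12 and 30 reads dorsally and 4, 1 and 5 reads ventrally. Its groups did not overlap, and the log2 fold change was 2.29 ± 1.05 (unadjusted p = 0.0537, adjusted p = 1.00, edgeR, higher in 3 of 3 dorsal libraries). The protease gene gd, known from the embryonic cascade that activates Spätzle, had 396, 95 and 104 reads dorsally and 115, 0 and 78 reads ventrally. Its log2 fold change was 1.58 ± 1.17 (adjusted p = 1.00, edgeR), with 0.53 on dropping dorsal replicate 1 and 0.99 on dropping ventral replicate 2.

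The cytoplasmic part of the Toll pathway was read on both sides, with its transcription factors at low counts. Of 9 tested genes none was called or passed unadjusted, and the median log2 fold change was -0.03. The adaptor gene Myd88 measured 25.8 ± 1.72 CPM dorsally and 33.4 ± 10.2 CPM ventrally (SD, n = 3; log2 fold change -0.38 ± 0.26, adjusted p = 1.00, edgeR). Traf6 measured 37.1 ± 5.0 CPM dorsally and 26.4 ± 7.41 CPM ventrally (0.49 ± 0.26, adjusted p = 1.00, edgeR). The Rel factor gene Dif had only 1 to 26 reads in each library (log2 fold change 0.66 ± 1.09, adjusted p = 1.00, edgeR). Dropping ventral replicate 1 gave -0.17 for Myd88 and 1.27 for Dif, and dropping ventral replicate 2 gave -0.61 and 0.14. Traf6 had 0.29 on dropping ventral replicate 3 and 0.99 on dropping ventral replicates 1 and 2, and Dif had 0.24 on dropping dorsal replicate 1 and 1.06 on dropping dorsal replicate 2. The Rel factor gene dl had 40 to 98 reads and its inhibitor gene cact 929 to 1990 reads.

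The other Toll-family genes were nearly silent. Tehao and MstProx had at most 4 reads in any library, Toll-4 at most 8 and Toll-9 at most 41, and none had enough reads to be tested. Among other leucine-rich repeat surface proteins 15 of 21 genes were tested, 0 were called and 0 had an unadjusted p under 0.05 (edgeR), with a median log2 fold change of 0.00. Those with the smallest p were rdo at 15.2 ± 8.27 CPM dorsally and 8.67 ± 4.08 CPM ventrally, kek5 at 95.5 ± 16.2 and 75.7 ± 28.0 CPM, and kek4, which had 56, 1 and 1 reads dorsally and 34, 101 and 20 reads ventrally. kek4 and kek5 encode Kekkon proteins, transmembrane proteins with leucine-rich repeats and an immunoglobulin domain. Their log2 fold changes were 0.81 ± 0.50 for rdo, 0.34 ± 0.27 for kek5 and -1.64 ± 1.41 for kek4 (adjusted p = 1.00 for each, edgeR). Single libraries moved each of them: rdo was 0.28 without dorsal replicate 3 and 0.46 without ventral replicate 2, and 0.41 without ventral replicates 1 and 2. For kek5, dropping ventral replicate 1 gave 0.08, dropping ventral replicate 2 gave 0.62 and dropping dorsal replicate 1 gave 0.22. For kek4 it was -5.82 without dorsal replicate 1, -1.08 and -1.09 without dorsal replicates 2 and 3 in turn, -0.50 without ventral replicate 2 and -0.13 without ventral replicates 1 and 2.

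Genes for known partners of these receptors and for cortical actomyosin, the contractile network that Toll receptors polarise in the embryo, were read in every library. Of 12 tested genes 0 were called and 0 passed unadjusted (edgeR), with a median log2 fold change of 0.06. The latrophilin gene Cirl, whose product partners with Tollo, measured 345 ± 15.7 CPM dorsally and 304 ± 95.5 CPM ventrally. The kinase gene Src42A, which had the smallest p of the list, measured 261 ± 9.52 and 315 ± 35.7 CPM. Its 3 ventral libraries lay above its 3 dorsal ones, and the log2 fold change was -0.27 ± 0.16 (adjusted p = 1.00, edgeR).

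**Figure D5:**
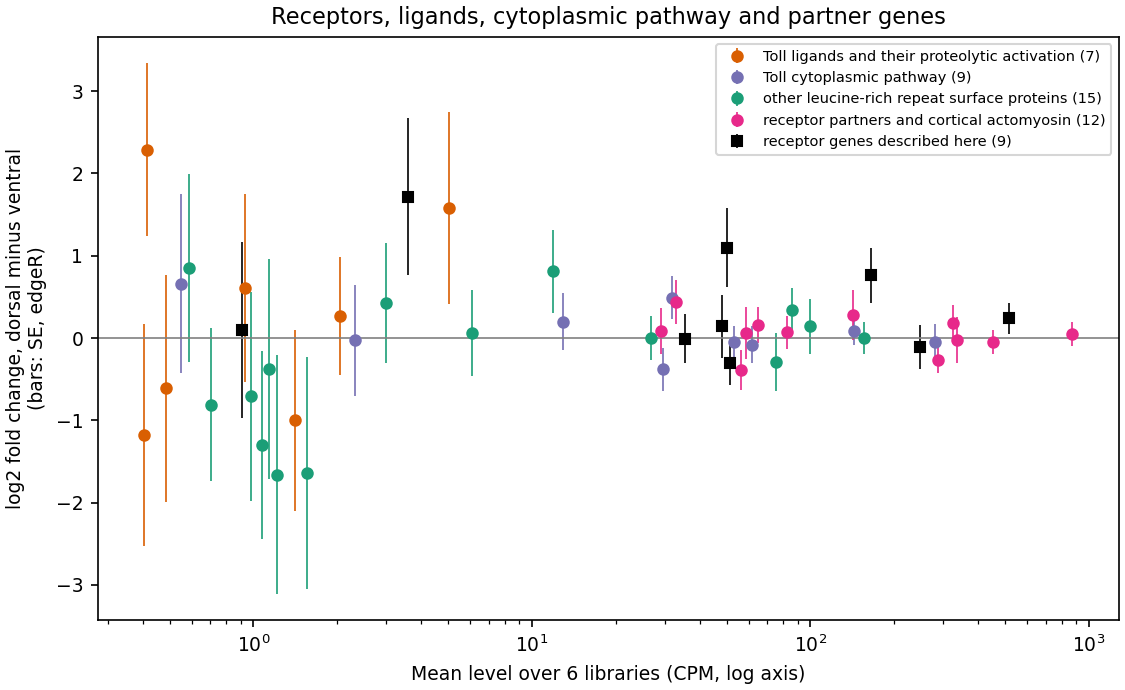
Log2 fold change (dorsal minus ventral, bars SE, edgeR) against the mean level over 6 libraries in CPM on a log axis, for the 9 receptor genes (black squares) and the tested genes of the ligand, cytoplasmic pathway, leucine-rich repeat and partner lists (coloured circles). Among the 9 receptor genes the SE runs from 0.19 for trn to 1.07 for Toll-6, and no gene shown was called.

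The genes whose levels followed the receptors most closely over the 6 libraries were sought among 6179 genes with a mean of at least 10 CPM, by the Pearson correlation of log2 CPM. Tl was followed most closely by tkv (0.998) and spoon (0.993), 18w by NetB (0.981) and kek5 (0.978), and Toll-7 by mip120 (0.984) and Plod (0.982). Tollo was followed by kuz (0.985) and shg (0.983), Toll-6 by NAT1 and pzg (0.984 each), and caps by fliI (0.992) and Klp10A (0.976). For trn they were E(spl)malpha-BFM (0.978) and Hsc70-3 (0.975), for Ten-a Sp1 (0.992) and Vps24 (0.987), and for Ten-m CG11807 (0.994) and Hsc20 (0.992). With 6 libraries such values are common: the closest match of a gene among the 6179 had a median r of 0.991.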

How the data were processed

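The authors deposited whole-number counts of reads per gene for 6 libraries. They also deposited normalized counts, a signal scale that matched the counts scaled by a single factor in each library (0 values off by more than 0.01 reads). The submitters' processing notes name Trimmomatic, featureCounts, DESeq2, dm6 and BDGP6, and the aligner, versions and strandedness of counting are not stated there. Per the labels' protocols, larvae grew at 25 °C, collection took 1 h, and the kits were SMART-Seq v4 and Nextera XT.

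Symbols, positions and exon lengths came from Ensembl release 115 (BDGP6), which held 17253 of 17559 identifiers. The row of 18w carries an older identifier that this annotation lacks, and its name rests on the rule that set the members. Ect4 and zip had no row by symbol and were not analysed here by name. The main test was edgeR's robust quasi-likelihood test (version 4.0.16, R 4.3.3) with TMM factors, the filterByExpr filter and no covariate. P-values were adjusted by Benjamini-Hochberg over the 8707 genes, with 0.05 as threshold. The SE was taken from the fold change and its F statistic, and 95% intervals use the degrees of freedom of the test. The fit was also run on counts simulated from its own estimated means and dispersions, which cannot show how it handles libraries that stand apart. A prior count of 2 was used for log2 CPM.

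Named genes were the 9 members, up to 3 genes of smallest p per list where none was called, the 2 closest genes by correlation for each member, and salm, salr and disco. Of the 3 genes this rule names in the partner list, 2 are not reported here. The genes dl, cact, NT1, Cirl, Toll-4, Toll-9, Tehao, MstProx and alrm were named after their values were seen. Single cell type markers were also picked out from their lists after their values were seen. Members and lists were chosen with earlier results of these data known. Alternatives covered 3 other normalizations (RLE, upper quartile, library size), 2 other filters, voom from limma 3.58.1 with weighted samples, DESeq2 1.42.0, a replicate block, and fits that drop single libraries. Dropping ventral replicates 1 and 2 together was added with the data known. Poisson intervals (scipy 1.17.1) cover counting error only, as PCR copies of a molecule are counted separately. Every pair of libraries differed by more than sampling noise.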

Additional observations from a re-analysis of the deposited data

How the results depend on the processing

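In all 15 alternatives 0 receptor genes and 0 genes of the pathway lists were called toward dorsal or ventral, and the smallest adjusted p of a receptor gene was 0.196 (Toll-7 without ventral replicate 2, edgeR). The log2 fold changes of 18w, Toll-7, trn and Ten-a kept their direction in all 15, with leave-one-out ranges of 1.17 to 2.74, 0.72 to 1.93, 0.03 to 0.34 and 0.46 to 0.94. The others turned sign in some fits, from values between -0.30 (caps) and 0.14 (Tollo) in the main fit. Leave-one-out values ran from -0.30 to 0.22 for Tl, -1.59 to 0.74 for Toll-6, -0.22 to 0.67 for Tollo, -0.63 to -0.12 for caps and -0.27 to 0.20 for Ten-m. With limma-voom Tl had 0.01 and Toll-6 -0.42, and with library size alone Ten-m had 0.03. With ventral replicates 1 and 2 left out together, Tl had 0.12, caps 0.03 and spz 1.5, where the main fit gave -1.0 for spz. The cause of these changes was not tested.

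Over all genes, 2 were called toward dorsal and 6 toward ventral. DESeq2 called 14 and 34, limma-voom 2 and 9, and no filter on low counts gave 4 and 9. Leaving out 1 library gave 2 to 3 toward dorsal and 2 to 6 toward ventral (2 without dorsal replicate 1), in fits with fewer samples. The cause of the other differences was not tested. For all 9 receptor genes the spread between libraries exceeded that of counting alone in both groups.

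With the replicate number as a block, Toll-7 had 1.33, Ten-a 0.80, Toll-6 -0.45 and Ten-m 0.04 (adjusted p = 1.00 for each, edgeR), 0 receptor genes were called, and no call of a receptor gene changed. Same-numbered libraries had deviations from their group means correlated at 0.0029, -0.0376 and 0.0587. By these deviations no dorsal library correlated best with the ventral library of its number, but ventral replicate 3 correlated best with dorsal replicate 3. Over all dorsal-ventral pairs the values ran only from -0.108 to 0.107. They do not settle whether the numbers pair the samples, and the main test used no pairing.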
